A study of Mus musculus with 35 samples.

Results

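The comparison set pancreatic lymph nodes of NOD mice at 8 weeks of age against those at 4 weeks, each read as a ratio to control RNA of the related strain NOD.B10 on the same array. It used the arrays titled for these ages, 4 at 8 weeks and 6 at 4 weeks, 10 of the 35 in the series. The value followed is the log2 ratio of the NOD signal over the NOD.B10 signal, here called the strain ratio, and the difference is the mean of the 8-week arrays minus the mean of the 4-week arrays. Each difference was also split into what the NOD channel and the NOD.B10 channel contributed.

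The NOD samples were pancreatic lymph nodes of female NOD/LtJ mice, a strain that develops autoimmune diabetes spontaneously, and the labels call them diabetic at both ages. Nothing in the labels says whether an array held 1 mouse or a pool, or that arrays of an age came from separate mice, so p-values measure the spread between arrays. The controls were female NOD.B10Sn-H2b/J mice, which carry the NOD background with the H2b haplotype of the major histocompatibility complex (MHC). The design names a control group of 10 mice aged 10 days and a control group of 10 mice aged 20 weeks, and none aged 4 or 8 weeks. The sources used here do not give which control RNA was on which array. A difference in the strain ratio therefore mixes the age of the NOD mice with the control RNA of the array, and the channels are given apart for that reason. NOD RNA was always labelled with Cy3 and control RNA with Cy5.

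The pancreatic lymph node drains the pancreas, and it is where dendritic cells carrying islet antigens meet T cells before and during insulitis. MHC class II molecules bind peptides in endosomes with the help of the invariant chain Cd74 and the editor H2-DM and show them to CD4 T cells, whereas class I molecules are loaded in the endoplasmic reticulum and read by CD8 T cells. The MHC haplotype is the main inherited difference between these strains and the main determinant of susceptibility in NOD mice. In whole tissue, fewer cells of a type and less RNA per cell cannot be told apart.

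Arrays of the 2 ages also differed in how they were read. All 6 arrays at 4 weeks were read on the same scanner and day with Feature Extraction 8.5.1.1, whereas at 8 weeks replicates 1, 3 and 4 were read on another scanner with version 8.1.1.1. Only replicate 2 at 8 weeks shared scanner and version with the 4-week arrays, on a day of its own. That array stood apart from its group: in the NOD channel its correlation over genes was 0.849 to 0.868 with the other 8-week arrays and 0.906 to 0.946 with the 4-week arrays. Replicates 1, 3 and 4 correlated with each other at 0.974 to 0.975. The control channel showed the same, with 0.884 to 0.906 between replicate 2 and the other 8-week arrays, 0.920 to 0.938 with the 4-week arrays and 0.985 to 0.987 among replicates 1, 3 and 4. In the strain ratio replicate 2 correlated with the other 8-week arrays at -0.01 to 0.25, and those with each other at 0.39 to 0.53. The share of spots well above background in the control channel was 42.4% to 49.5% at 4 weeks, 43.6% on replicate 2 and 67.9% to 73.5% on the other 8-week arrays. Cd3e and Cd22, which mark T and B cells, passed the background limit in each channel on all 10 arrays.

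Between 4 and 8 weeks the strain ratio differed for 7682 of 28438 genes tested (27%), at a Benjamini-Hochberg adjusted p under 0.05 in limma. It was higher at 8 weeks for 4247 genes (14.9%) and lower for 3435 (12.1%), and the median difference over all genes was -0.04. An absolute log2 difference of at least 1 was reached by 3831 of them (13.5%), 2141 higher and 1690 lower. For 5178 genes (18.2%) the ratios of the ages did not overlap, 3007 of them higher (10.6%) and 2171 lower (7.63%) at 8 weeks. Genes above background and unsaturated in both channels on all 10 arrays are here called fully measured. Of these 10834 genes 4862 (44.9%) were called, a larger share than over all genes. The list counts below are to be read against both shares. With the scanner as a block, where replicate 2 alone carries the contrast, 3289 genes were called.

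More of the difference came from the control channel than from the NOD channel. The NOD channel alone differed for 5765 genes (20.3%), 2990 higher (10.5%) and 2775 lower (9.76%), and its signals did not overlap for 2055 (7.23%). The control channel differed for 13081 (46%), 6374 higher (22.4%) and 6707 lower (23.6%), with no overlap for 7348 (25.8%). Its 4-week arrays correlated with each other at 0.953 to 0.978, against 0.894 to 0.948 in the NOD channel. The labels do not say whether arrays of an age shared the same control RNA. If they did, control p-values measure only the spread between hybridisations, so the counts of the channels are not on like terms. Of the 7682 genes called in the ratio, 1240 were called in the same direction in the NOD channel and 5126 in the opposite direction in the control channel. Among the 3831 genes past both limits, the NOD channel carried 813 (21.2%) and the control channel 1644 (42.9%), while 579 were carried by both and in 795 both channels moved the same way by different amounts. The median share of a difference that lay in the NOD channel was 0.155, with quartiles of -0.215 and 0.638. Per 8-week array against the 4-week mean it was 0.117, 0.294, 0.138 and 0.0803 for replicates 1 to 4. Among the 1880 of these genes above background and unsaturated in each channel of all 10 arrays the median share was -0.046, and the NOD channel carried 134 (7.13%) against 1039 (55.3%) for the control channel. Calls in the NOD channel changed with the arrays used: 8869 genes were called without 8-week replicate 2, 2895, 2806 and 2659 without replicate 1, 3 or 4, and 5 with the scanner as a block.

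**Figure D1:**
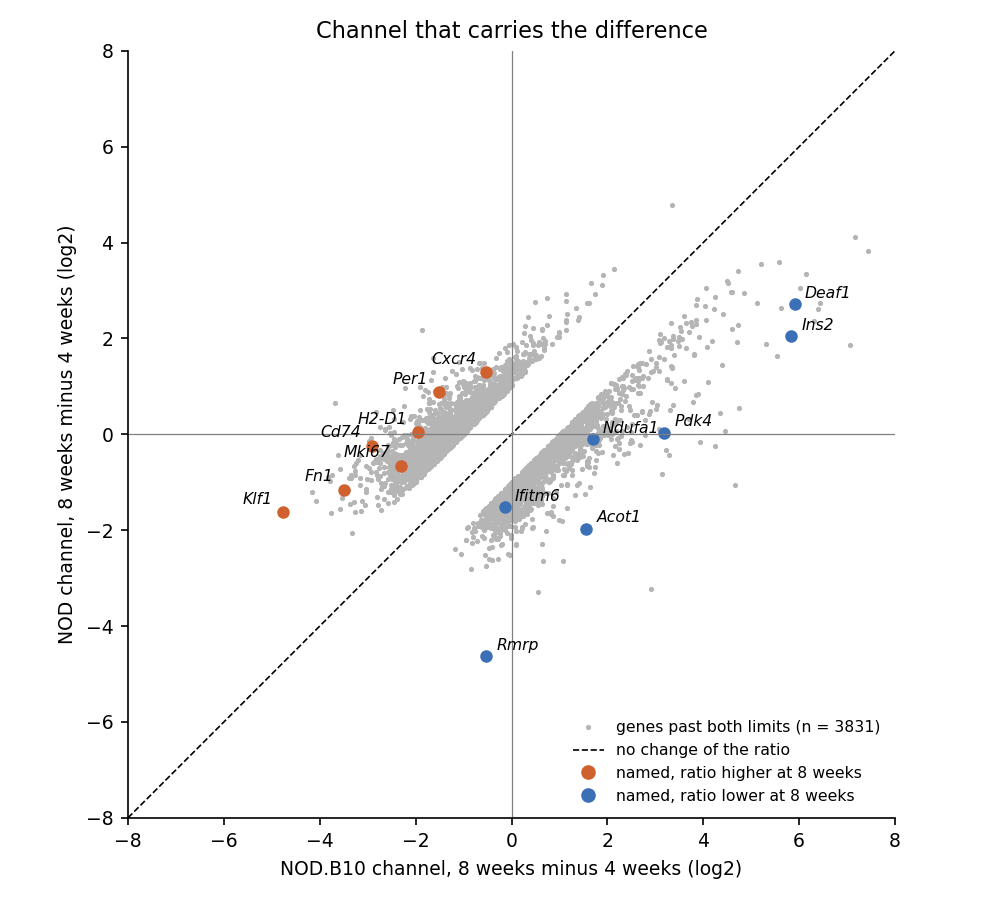
Change of the control channel (x axis) and of the NOD channel (y axis), both as log2 signal at 8 weeks minus 4 weeks, for the 3831 genes called in the ratio with a difference of at least 1, with 14 genes named. Points above the dashed line have a higher ratio at 8 weeks; Cd74 at -2.92 and -0.24 moved in the control channel, and Rmrp at -0.52 and -4.63 in the NOD channel.

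The genes of MHC class II antigen presentation had higher strain ratios at 8 weeks. Of 11 listed genes 10 were measured; 8 rose, 0 fell, and H2-Aa and H2-Oa did not pass. The list's median difference was 1.33, beside -0.04 over all genes. The control channel fell for 9 of the 10 genes and the NOD channel for 1. At 4 weeks the mean control signal of the list was 13.69 to 14.22 (log2) and at 8 weeks 12.20 to 13.00, with no overlap, whereas the NOD signal was 12.58 to 13.04 at 4 weeks and 12.04 to 13.43 at 8 weeks, with overlap. With the scanner as a block 6 of the 10 genes were called higher, and without replicate 2 also 6. The split between channels changed with that block: without it the list's medians were -1.54 (control) and 0.05 (NOD), and with it they were -0.85 and 0.45.

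Promoter windows of 4 class II genes, 250 bases before to 50 after the gene start on the gene's strand, are shown from RefSeq (GRCm38.p6). Class II genes are known to share a promoter module, and these 4 run from H2-DMb2, with the largest difference after Cd74, to H2-Aa, which did not pass. The windows lie at chr17:34305617-34305916 (plus strand), chr17:34152941-34153240 (plus), chr17:34144999-34145298 (plus) and chr17:34287774-34288073 (minus). Capitals mark ATTGG, the core of the Y box bound by NF-Y, and its reverse complement CCAAT.
H2-Eb1 promoter window: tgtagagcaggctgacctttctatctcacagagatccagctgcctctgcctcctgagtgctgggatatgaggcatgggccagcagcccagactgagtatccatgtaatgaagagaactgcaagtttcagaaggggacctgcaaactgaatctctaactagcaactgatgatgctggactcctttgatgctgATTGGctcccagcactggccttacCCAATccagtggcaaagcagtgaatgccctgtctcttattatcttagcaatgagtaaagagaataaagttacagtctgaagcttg
H2-DMb1 promoter window: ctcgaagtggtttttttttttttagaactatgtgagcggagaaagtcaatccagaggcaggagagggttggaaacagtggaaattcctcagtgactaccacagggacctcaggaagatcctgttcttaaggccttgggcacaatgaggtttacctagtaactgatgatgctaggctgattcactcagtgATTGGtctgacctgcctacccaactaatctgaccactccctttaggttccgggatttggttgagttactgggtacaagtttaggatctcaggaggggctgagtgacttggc
H2-DMb2 promoter window: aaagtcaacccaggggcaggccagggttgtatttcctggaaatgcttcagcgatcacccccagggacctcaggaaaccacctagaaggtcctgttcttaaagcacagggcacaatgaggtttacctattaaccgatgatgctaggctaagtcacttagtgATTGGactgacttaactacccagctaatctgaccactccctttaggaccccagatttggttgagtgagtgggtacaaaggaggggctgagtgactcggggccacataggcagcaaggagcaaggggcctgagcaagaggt
H2-Aa promoter window: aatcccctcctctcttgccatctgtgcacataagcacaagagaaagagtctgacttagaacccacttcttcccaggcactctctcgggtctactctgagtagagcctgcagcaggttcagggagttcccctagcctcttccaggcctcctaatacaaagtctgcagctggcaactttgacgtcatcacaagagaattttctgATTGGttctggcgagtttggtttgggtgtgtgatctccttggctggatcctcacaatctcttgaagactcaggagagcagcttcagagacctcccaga
ATTGG on the gene's own strand began 59, 61, 90 and 48 bases before the start of H2-Eb1, H2-DMb1, H2-DMb2 and H2-Aa. Of the 11 listed class II genes 8 had a window in the table, and all 8 held ATTGG on their own strand, beside 22.1% of all 32851 windows and 37.4% with either strand. The reference is the C57BL/6J genome, so the letters of the NOD haplotype may differ, and H2-Aa shares the motif with the genes that passed.

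Cd74, the invariant chain that escorts class II molecules, had strain ratios of -2.51 to -2.17 at 4 weeks, with a median of -2.28, and of 0.26, 0.66, 0.71 and -0.21 at 8 weeks. The ages did not overlap, and the ratio rose by 2.68 (SE 0.19, adjusted p = 4.94e-12), a 6.40-fold change. The control channel fell by 2.92 (SE 0.26), and the NOD channel differed by -0.24 (SE 0.33, adjusted p = 0.65). H2-DMb2, a chain of the peptide editor, had ratios of -1.58 to -0.50 (median -1.22) at 4 weeks and 1.17, 1.33, 1.40 and 0.75 at 8 weeks. All 4 later arrays were above 0 and all 6 earlier ones below it, a difference of 2.23 (SE 0.20, adjusted p = 9.30e-10).

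H2-Ab1, the class II beta chain at which NOD and NOD.B10 mice differ, had ratios of -1.75 to -0.75 (median -1.18) at 4 weeks and 0.49, 0.50, 0.80 and 0.32 at 8 weeks. H2-Eb1, the beta chain of the class II E molecule, had -1.75 to -1.10 (median -1.37) and then 0.13, 0.69, 0.41 and -0.40. Both separated the ages without overlap, by 1.76 (SE 0.17, adjusted p = 2.36e-09) and 1.56 (SE 0.26, adjusted p = 2.23e-05), and H2-DMb1 rose by 1.66. H2-Aa, the alpha chain, overlapped between the ages and differed by 0.55 (SE 0.33, adjusted p = 0.234). A second probe of H2-Aa gave 1.45 (SE 0.37), with an adjusted p over all probes of 0.004, so its probes did not give the same call. Allele mismatches at a probe that are constant drop out of a difference between ages; their part in these ratios was not tested.

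**Figure D2:**
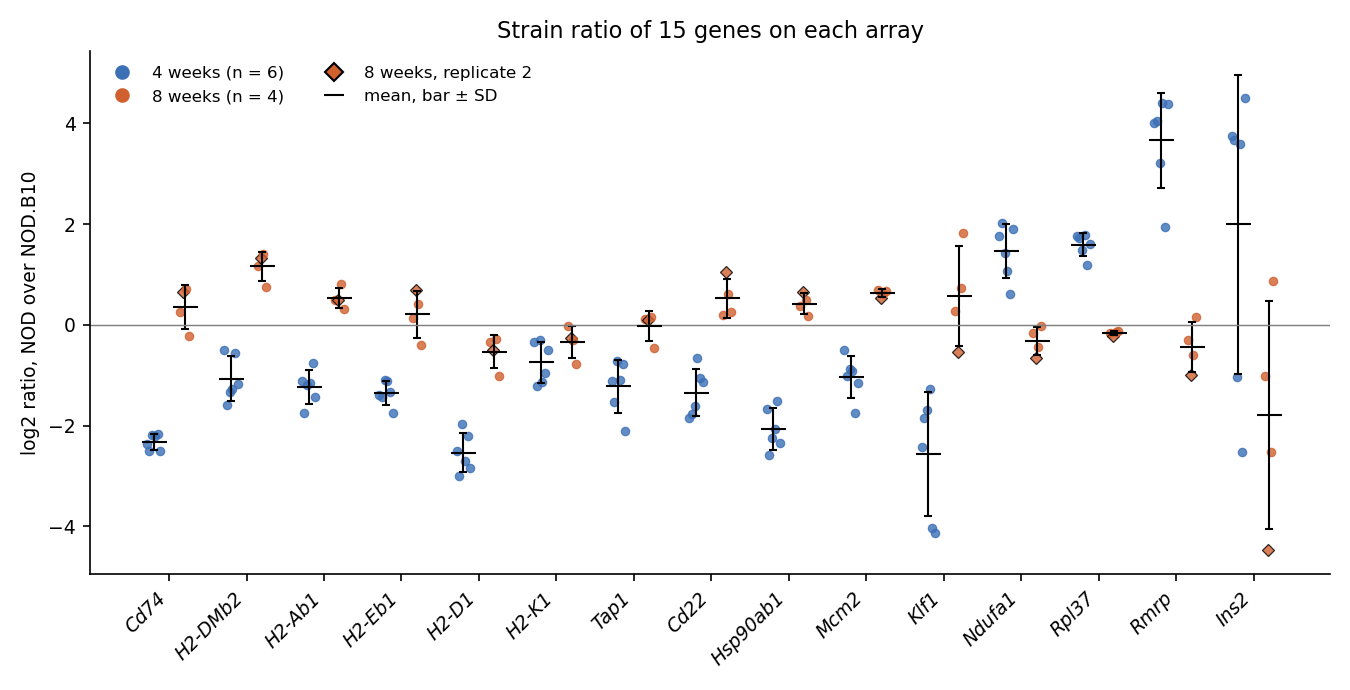
Strain ratio (log2, NOD over NOD.B10) of 15 genes on each of the 6 arrays at 4 weeks and the 4 at 8 weeks, with mean and SD; the diamond is 8-week replicate 2. Cd74 lay at -2.51 to -2.17 at 4 weeks and -0.21 to 0.71 at 8 weeks, Rmrp ran the other way, and Ins2 overlapped.

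Among class I genes 8 of 17 measured rose and 3 fell, with a median difference of 0.65. H2-D1, a classical class I heavy chain, had ratios of -3.00 to -1.97 (median -2.61) at 4 weeks and -0.34, -0.49, -0.29 and -1.01 at 8 weeks. The ages did not overlap, though all 10 arrays were below 0, and the ratio rose by 2.01 (SE 0.19, adjusted p = 1.66e-09). Its control channel fell by 1.96 and its NOD channel differed by 0.04 (adjusted p = 0.94). The nonclassical genes H2-T23, H2-M2 and H2-Q10 rose by 1.71, 1.67 and 1.66, each without overlap. H2-T23 was the one of these also called in the NOD channel, by 0.60 (SE 0.21, adjusted p = 0.044). H2-K1, the other classical heavy chain, differed by 0.40 (SE 0.29, adjusted p = 0.33), with overlap. B2m, the light chain of every class I molecule, went the other way: 0.27 to 0.57 (median 0.33) at 4 weeks and 0.04, -0.38, -0.06 and -0.55 at 8 weeks, a fall by 0.60 (SE 0.16, adjusted p = 0.00497). The other genes that fell were Cd1d1 and H2-M3.

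Peptide processing for class I showed 7 of 12 genes higher and 2 lower (Erap1 and Psmb10), with a median of 0.55. Tap1, a subunit of the peptide transporter, had ratios of -2.11 to -0.71 (median -1.11) at 4 weeks and 0.12, 0.11, 0.15 and -0.47 at 8 weeks. Its rise of 1.20 (SE 0.29, adjusted p = 0.00219) was lost with the scanner as a block, which gave 1.33. The partner subunit Tap2 rose by 1.53, the bridging chaperone Tapbp by 1.39 and the proteasome activator subunit Psme1 by 1.42, all without overlap. Calr, the chaperone calreticulin, rose by 2.10 on its brightest probe, while another probe gave -0.08 (adjusted p over all probes 0.851). Over the whole table, 1341 genes had more than 1 probe called, and in 313 (23.3%) called probes had opposite directions, so a single probe is a limited measure of a gene here.

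B cell genes moved with the class II genes, which B cells also express. Of 21 measured, 11 rose and 1 (Vpreb3) fell, with a median of 0.53. Fcmr, the receptor for IgM, had ratios of -1.83 to -1.05 (median -1.65) at 4 weeks and 0.30, 0.49, 0.59 and -0.06 at 8 weeks, a rise of 1.92 (SE 0.17, adjusted p = 5.85e-10) with no overlap. Cd22, an inhibitory coreceptor, had -1.85 to -0.66 (median -1.37) and then 0.19, 1.04, 0.62 and 0.26, a rise of 1.87 (SE 0.22, adjusted p = 6.13e-08). The low-affinity IgE receptor Fcer2a rose by 1.14 and the follicle homing receptor Cxcr5 by 1.09. In the control channel 11 B cell genes fell and 0 rose, and in the NOD channel 1 rose and 1 fell. Under the scanner block the list's median went from -0.56 to -0.12 in the control channel, with 5 genes lower, and from 0.00 to 0.45 in the NOD channel, with 0 called, so that more of the ratio difference lay in the NOD channel there. Of 17 germinal centre and plasma cell genes only Derl3, a factor of protein disposal in secretory cells, was called, at -1.40.

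T cell genes were higher in 9 of 26 and lower in 2 (Il7r and Txk), with a median of 0.30. Of the 26, 23 were fully measured, and 44.9% of all fully measured genes were called. Cd3g, a chain of the T cell receptor complex, had ratios of -1.05 to -0.41 (median -0.60) at 4 weeks and 0.44, 0.81, 0.51 and 0.14 at 8 weeks, a rise of 1.16 (SE 0.24, adjusted p = 0.000473). The T lineage factors Bcl11b and Satb1 rose by 1.0 and 0.89 and the receptor kinase Zap70 by 0.92. Cd3e differed by -0.30 (SE 0.29, adjusted p = 0.484) on the brightest probe and by 0.74 on a second probe (adjusted p over all probes 0.005). On that brightest probe the channels moved together, by 2.78 (NOD) and 3.08 (control) on average but by 0.29 and 0.78 on replicate 2.

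Genes of regulatory and effector T cells were lower in 6 of 21 and higher in 1, with a median of -0.26. Only 6 of the 21 were fully measured, and 5 had only a bound in some group and channel. Tnfrsf4, the costimulatory receptor OX40, had ratios of 0.09 to 1.24 (median 0.67) at 4 weeks and -0.66, -0.75, -0.64 and -0.71 at 8 weeks. The groups were apart and the 8-week values close together, a fall by 1.38 (SE 0.22, adjusted p = 1.50e-05). Tbx21, the Th1 master factor, rose by 0.80 (adjusted p = 0.00172), whereas Cxcr3, a chemokine receptor of Th1 cells, fell by 0.50 (adjusted p = 0.0404) with overlap. Foxp3, which defines regulatory T cells, differed by -0.30 (SE 0.34, adjusted p = 0.551) and Ifng by -0.55 (SE 0.34, adjusted p = 0.236). Ctla4 and Il2 were not well above background in the control channel on any 4-week array, so no fold is given for them. Il21, Il17a and Il4 were the other genes called lower, and no values are given for them.

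The strain ratio of macrophage and dendritic cell genes rose for 5 of 24 and fell for 3, with a median of 0.40. Over all genes 14.9% rose and 12.1% fell. Of the 24, 19 were fully measured. Of all fully measured genes 44.9% were called, a larger share than in this list. In the NOD channel 0 rose and 3 fell, and in the control channel 1 rose and 14 fell. Siglec1, the sialoadhesin of lymph node sinus macrophages, had ratios of -2.23 to -0.55 (median -1.46) at 4 weeks and 0.47, 0.30, 0.64 and 0.03 at 8 weeks, a rise of 1.81 (SE 0.23, adjusted p = 2.40e-07). The complement gene C1qa rose by 1.45 and Csf1r, the receptor for macrophage colony-stimulating factor, by 1.19. Ccl17, a chemokine of mature dendritic cells, ran opposite: 0.19 to 1.37 (median 0.57) at 4 weeks and -1.01, -0.72, -0.89 and -1.69 at 8 weeks. It fell by 1.75 (SE 0.38, adjusted p = 0.00066), with -1.45 of it in the NOD channel (adjusted p = 0.019). That channel difference was -0.18 on replicate 2. Of 12 natural killer cell genes only Klrd1, the CD94 receptor, was called, at -1.09. Ltb, the lymphotoxin subunit that maintains lymph node structure, rose by 1.46 and Tgfb1 by 1.68, while the monocyte chemokine Ccl8 fell by 1.77. In all, 4 of 30 chemokine and cytokine genes rose and 2 fell, smaller shares than the 14.9% and 12.1% of all genes.

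Cell cycle genes had higher strain ratios at 8 weeks, with 33 of 46 higher, 0 lower and a median of 0.96. Mcm2, a subunit of the replicative helicase, had ratios of -1.75 to -0.51 (median -0.97) at 4 weeks and 0.70, 0.53, 0.61 and 0.68 at 8 weeks. All 8-week values were above 0 and close together, a rise of 1.67 (SE 0.22, adjusted p = 4.60e-07). On its brightest probe Mki67, the proliferation marker, had -2.49 to -0.53 (median -0.77) and then 0.12, 0.04, 0.41 and 1.11, a rise of 1.66 (SE 0.38, adjusted p = 0.00137). A second Mki67 probe gave 0.92 (SE 0.43, adjusted p over all probes 0.116). The tubulin regulator Stmn1 rose by 1.77 and the mitotic phosphatase Cdc25b by 1.88. The control channel fell for 39 of the 46 genes, and the NOD channel fell for 4 and rose for 0. Mean control signals of the list were 11.66 to 11.80 at 4 weeks and 10.31 to 10.62 at 8 weeks, while NOD signals were 10.38 to 11.59 and 10.54 to 10.78. With the scanner as a block 7 of the 46 were called higher at a median of 0.89, and without replicate 2 there were 30.

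Erythroid genes had the largest list median, 1.66, with 12 of 17 higher and 0 lower. Klf1, the erythroid master factor, had ratios of -4.13 to -1.28 (median -2.13) at 4 weeks and 0.28, -0.55, 0.73 and 1.82 at 8 weeks. The groups did not overlap despite a wide spread, and the ratio rose by 3.14 (SE 0.55, adjusted p = 4.65e-05). Hba-a1, an alpha globin, had -2.88 to -1.16 (median -1.57) and then 1.31, 0.85, 0.58 and 1.67, a rise of 2.96 (SE 0.52, adjusted p = 5.07e-05). The blood group protein Kel, which is not in the list, rose by 2.69. Among listed genes Trim10 rose by 2.49, carbonic anhydrase Car2 by 2.20 and the factor Gata1 by 1.02. All 17 listed genes fell in the control channel, where Klf1 fell by 4.76 and Hba-a1 fell by 4.16. The NOD channel fell for 3 of the 17, and by less than the control channel in Klf1, at 1.62. The list's control signal was 11.89 to 12.31 on the 4-week arrays and 9.38 to 9.74 on the 8-week arrays, replicate 2 being the highest of these. Its NOD signal was 9.38 and 9.64 on 4-week replicates 5 and 6, 11.06 to 11.64 on the other 4, and 9.43, 9.34, 9.79 and 10.49 on the 8-week arrays. With the scanner as a block 1 gene was called, and without replicate 2 again 12.

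**Figure D3:**
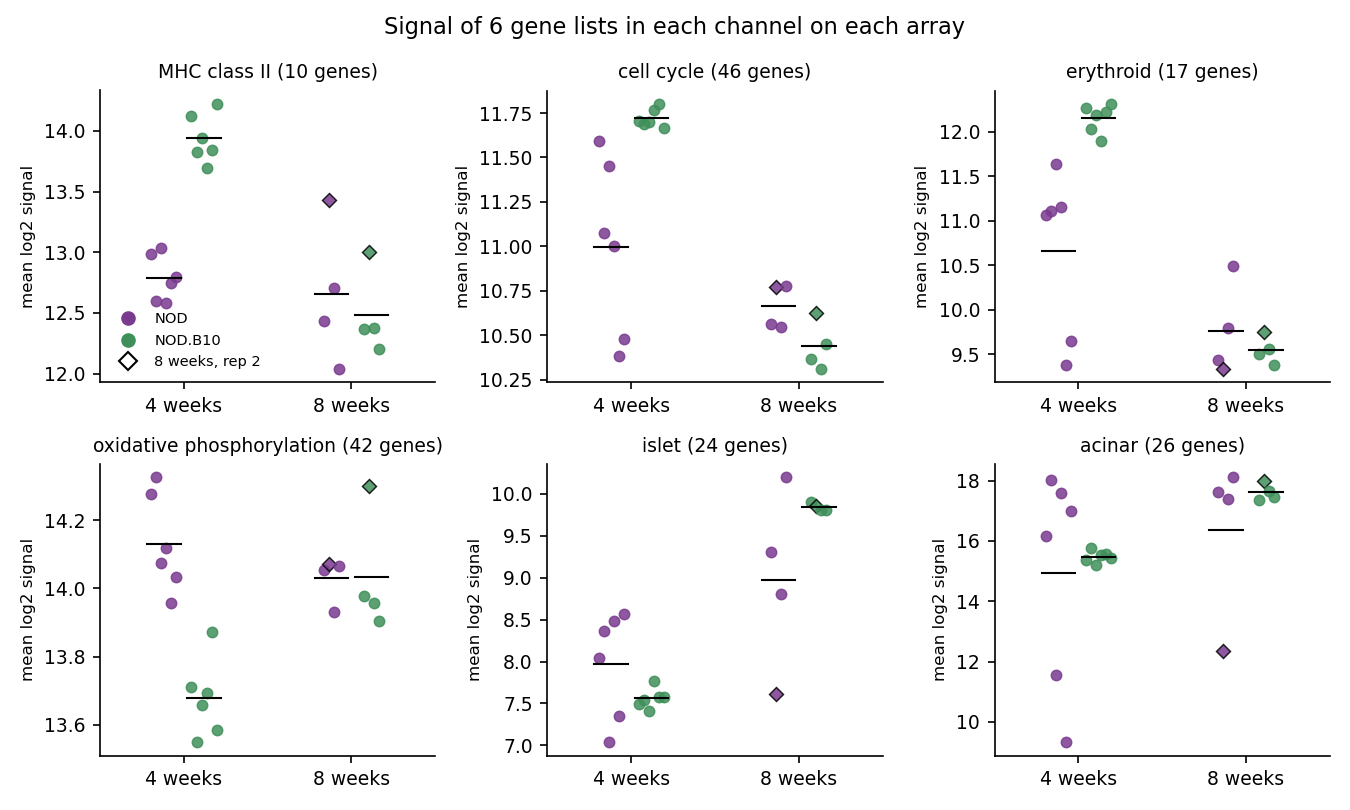
Mean log2 signal of 6 gene lists on each array, NOD channel (purple) and NOD.B10 channel (green), with the group mean as a line and 8-week replicate 2 as a diamond. The control signal separated the ages without overlap in every list shown, whereas NOD signals overlapped; acinar NOD signal was 9.32 to 18.04 at 4 weeks.

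Genes of protein folding stress rose in 11 of 20 and fell in 1 (Ddit3), with a median of 0.81. Hsp90ab1, a constitutive chaperone, had ratios of -2.59 to -1.51 (median -2.16) at 4 weeks and 0.37, 0.66, 0.50 and 0.17 at 8 weeks. The groups lay far apart, by 2.49 (SE 0.17, adjusted p = 2.71e-12), of which the control channel gave -2.11. The heat-inducible Hspa1a rose by 2.62 (SE 0.43) with ratios from -2.93 to 0.27 at 4 weeks, and Hsph1 by 2.28. Of all fully measured genes 44.9% were called, a larger share than among the 24 immediate early genes, of which 21 were fully measured. Immediate early genes rose in 9 of 24 and fell in 1 (Klf4), with a median of 0.50. Only 2 of them were called higher with a block for the scanner, at a median of 0.37, and 3 with the version block. Nr4a1, which T cell receptor signals induce, had -1.95 to -0.95 (median -1.24) and then 0.36, -0.04, 0.74 and 1.09, a rise of 1.90 (SE 0.36, adjusted p = 0.000165). It was also called in the NOD channel, by 1.12 (adjusted p = 0.029). Ier5 and Ier2 rose by 1.43 and 1.37.

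Clock genes were called higher in 4 of 17 and lower in 2, with a median of 0.24. Over all genes 14.9% were higher and 12.1% lower. Of the 17, 11 were fully measured, and 44.9% of all fully measured genes were called. Per1, a repressor in the clock loop, had ratios of -2.61 to -2.22 (median -2.38) at 4 weeks and -0.09, -0.55, 0.24 and 0.31 at 8 weeks, a rise of 2.40 (SE 0.37, adjusted p = 7.28e-06). Its output partner Dbp rose by 1.35 with no overlap, and Nfil3, which opposes Dbp at the same sites, fell by 1.57 (SE 0.27, adjusted p = 4.89e-05). The labels do not give the hour at which tissue was taken, and its part in these values was not tested.

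Of 19 fibroblast and reticular cell genes 9 had a higher strain ratio and 3 (Dcn, Il7 and Cxcl13) a lower one, with a median of 0.71. In the NOD channel 0 of these rose and 5 fell, with a median of -0.60, and in the control channel 2 rose and 13 fell, with a median of -0.82. Fn1, the matrix protein fibronectin, had ratios of -2.70 to -1.52 (median -1.81) at 4 weeks and 0.65, 0.29, 0.75 and 0.05 at 8 weeks, a rise of 2.33 (SE 0.38, adjusted p = 1.87e-05). The collagen gene Col3a1 rose by 2.28. Among blood endothelial genes 5 of 16 rose in the ratio and 1 (Emcn) fell. Of the 16, 12 were fully measured, and 44.9% of all fully measured genes were called, a larger share than in this list. In the NOD channel 1 of the 16 rose and 6 fell, and in the control channel 0 rose and 12 fell. Madcam1, the addressin through which lymphocytes enter gut-associated nodes, had ratios of -1.75 to -0.98 (median -1.43) and then 0.10, 0.65, 0.01 and -0.08, a rise of 1.56 (SE 0.25, adjusted p = 1.06e-05). Pecam1 rose by 1.13. Lymphatic genes split, with 2 of 8 higher and 2 lower, beside 14.9% and 12.1% of all genes. The scavenger receptor Stab2 rose by 1.25 and the hyaluronan receptor Lyve1 fell by 1.16.

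The highest differences among genes with a symbol that were fully measured and did not overlap were Klf1, Hba-a1, Sbno2, Vamp2, Fasn, Coro1a, Kel, Cd74, Ift140, Dock2, Hspa1a and Ptk2b. Coro1a, an actin regulator of leukocytes, had ratios of -2.70 to -2.04 (median -2.28) at 4 weeks and 0.28, 0.70, 0.70 and 0.09 at 8 weeks, a rise of 2.73 (SE 0.19, adjusted p = 8.39e-12). Dock2, which drives lymphocyte migration, rose by 2.62 and fatty acid synthase Fasn by 2.76, or 1.29 on another probe. Sbno2 rose by 2.86 and Vamp2, a vesicle fusion protein, by 2.77. In all 5 the control channel differed by -3.29 to -2.45 and the NOD channel was not called. Other Vamp2 probes gave 0.21 and 0.03 (adjusted p over all probes 0.590 and 0.951). Their control channel was well above background on 0 and 3 of the 4-week arrays. Ptk2b, a focal adhesion kinase of leukocytes, rose by 2.50 on its brightest probe, but a second probe, also bright on all 10 arrays, gave -1.71 (SE 0.28). On that second probe the 4-week ratios were 2.35, 1.72, 2.17, 1.74, 1.49 and 2.46 and the 8-week ratios 0.24, 0.29, 0.37 and 0.19. Both probes thus lay on opposite sides of 0 at 4 weeks and closer to it at 8 weeks. Ift140, a gene of ciliary transport, rose by 2.65 on its brightest probe. Its other probes were not well above background in the control channel on any 4-week array. A probe among these was called lower, at -1.07 (SE 0.32, adjusted p over all probes 0.011).

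Genes of oxidative phosphorylation had lower strain ratios at 8 weeks, 19 of 42 lower and 5 higher, with a median of -0.43. Ndufa1, a small subunit of complex I, had ratios of 0.61 to 2.02 (median 1.60) at 4 weeks and -0.15, -0.65, -0.45 and -0.03 at 8 weeks, a fall by 1.78 (SE 0.27, adjusted p = 5.71e-06). Cox7a2 and Cox7c, small subunits of complex IV, fell by 1.71 and 1.51, and Ndufb3 fell by 1.56. Among the genes that rose were Uqcrc1, Sdha, Atp5b and Ndufv1, which encode large core or catalytic subunits. The control channel rose for 21 of the 42 genes and fell for 6, and the NOD channel rose for 0 and fell for 2. With the scanner as a block 15 were lower and 1 higher, and without replicate 2 16 and 5. Of 36 ribosomal protein genes 8 fell and 4 rose, with a median of -0.13. Of the 36, 21 were fully measured, and 44.9% of all fully measured genes were called, a larger share than in this list. Rpl37 had ratios of 1.18 to 1.78 (median 1.66) and then -0.17, -0.23, -0.15 and -0.13, a fall by 1.76 (SE 0.21, adjusted p = 1.42e-07). Rps24 fell by 1.26 on its brightest probe and rose by 1.36 on another; the remaining probe gave 0.04.

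Rmrp, the RNA component of the mitochondrial RNA processing endoribonuclease, fell furthest among the fully measured genes that did not overlap. Its ratios were 1.94 to 4.40 (median 4.03) at 4 weeks and -0.30, -1.0, -0.60 and 0.16 at 8 weeks, a fall by 4.10 (SE 0.51, adjusted p = 2.39e-07). The difference lay in the NOD channel, which fell by 4.63 (SE 0.56, adjusted p = 5.90e-06), and by 4.32 on replicate 2. The control channel differed by -0.52 (adjusted p = 0.18). Acot1, a thioesterase of fatty acid metabolism, fell by 3.52, with -1.97 in the NOD channel and 1.55 in the control channel. Pdk4, the kinase that restrains pyruvate oxidation, had -0.80 to 2.88 (median 0.97) and then -1.57, -3.09, -1.94 and -1.99, a fall by 3.14 (SE 0.66, adjusted p = 0.000564) carried by the control channel at 3.18. The small GTPase Rhou and the growth factor Bmp7 fell by 2.97 and 2.82 and were lowest on replicate 2, at -3.15 and -3.03. Fabp4, the fatty acid binding protein of adipocytes and macrophages, fell by 2.31 with overlap. In all, 2 of 20 adipocyte genes fell and 2 rose, smaller shares than the 12.1% and 14.9% of all genes.

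Few genes were carried by the NOD channel under strict conditions: 22 higher and 59 lower genes with a symbol were fully measured, did not overlap in the ratio or in the NOD signal and were called in both. Cxcr4, the receptor that guides lymphocyte homing, had ratios of -2.66 to -1.08 (median -1.46) at 4 weeks and -0.09, 0.17, 0.71 and -0.07 at 8 weeks, a rise of 1.81 (SE 0.31, adjusted p = 3.01e-05). Its NOD signal rose by 1.29 (SE 0.34, adjusted p = 0.0071). The GTPase Nras, the purine synthesis enzyme Atic and the deglycosylating enzyme Engase rose by 1.59, 1.54 and 1.49, with NOD parts of 1.13, 1.16 and 1.37, and Nras gave 0.82 on another probe. Gpkow and Rhbdf2 rose by 1.48 and 1.38.

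Among the falls carried by NOD after Rmrp, Agt, the angiotensin precursor, fell by 2.15, Mrpl15 by 1.55, Fgl2, an immunoregulatory product of T cells and macrophages, by 1.52, Ifitm6 by 1.37 and the lipid droplet protein Plin2 by 1.32. A second Fgl2 probe, bright on all 10 arrays, gave -0.34 (SE 0.25, adjusted p over all probes 0.332). Plin2 had ratios of -0.21 to 1.02 (median 0.32) at 4 weeks and -0.84, -0.95, -0.90 and -0.94 at 8 weeks, so the later arrays lay close together below the earlier ones. Its NOD signal fell by 1.1 (SE 0.23, adjusted p = 0.0016). Mrpl15, of the mitochondrial ribosome, had a second probe that rose by 0.91.

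Many neutrophil and type I interferon genes fell in both channels. Of 17 neutrophil genes 12 fell in the NOD channel and 12 in the control channel, while in the ratio 3 fell and 1 rose, with a median of -0.46. Chil3 and Retnlg, secreted products of myeloid cells, fell in the ratio by 1.71 and 1.56, with -1.98 and -1.73 in the NOD channel, and their ratios overlapped between the ages. The list's NOD signal was 9.43 to 11.81 at 4 weeks, highest on replicate 3, and 8.80 to 9.44 at 8 weeks. Of the neutrophil genes 0 in the NOD channel and 9 in the control channel were called lower with the scanner as a block, at medians of -1.79 and -0.90 against -1.73 and -0.96 without it. Of 30 type I interferon genes 14 fell in the NOD channel and 21 in the control channel, with medians of -0.83 and -1.06. Under the scanner block 0 and 8 were called lower, and the medians were -0.46 and -0.53. In the ratio 2 fell and 2 rose, with a median of 0.13. These are smaller shares than the 12.1% and 14.9% of all genes. Rtp4, an interferon-induced chaperone, fell in the ratio by 1.21 (SE 0.35, adjusted p = 0.00932), whereas Isg20 and Irf7 rose by 1.15 and 0.95. Of 22 interferon gamma genes 1 rose and 0 fell in the NOD channel, and 3 rose and 10 fell in the control channel. In their ratio 3 rose and 1 fell, again smaller shares than over all genes. Irf8, a factor of myeloid and B cells, rose by 1.52, the adhesion molecule Icam1 by 1.21, and the guanylate-binding protein Gbp5 fell by 1.37.

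Pancreatic transcripts were present in these lymph nodes and rose in the control channel. Of 26 acinar genes 24 rose in the control channel. Of the 26, 10 were fully measured and 11 had only a bound in some group and channel. Saturated control spots over the whole array numbered 6 to 12 at 4 weeks and 31 to 44 at 8 weeks. The acinar list signal of the control channel was 15.22 to 15.76 at 4 weeks and 17.36 to 18.00 at 8 weeks. In the NOD channel it was 9.32 to 18.04 at 4 weeks and 17.63, 12.36, 17.40 and 18.11 at 8 weeks, low on 4-week replicates 3 and 5 and on 8-week replicate 2. The median NOD difference of the list was 1.39, 2.75 without replicate 2 but -2.55 under the scanner block. In the ratio 0 of 26 were called, with 3 lower under that block. Of 24 islet genes 13 fell in the ratio and 2 (Gad2 and Slc2a2) rose, with a median of -0.83, and 16 rose in the control channel. In the NOD channel 5 islet genes rose and 0 fell, with a median of 0.83, and without replicate 2 11 rose and 1 fell, with a median of 1.09. Of the list 17 of the 24 had only a bound in some group and channel. Without replicate 2, 6 islet genes fell. Ins2, an insulin gene, had ratios of -2.52 to 4.50 (median 3.63) at 4 weeks and -1.01, -4.48, -2.53 and 0.87 at 8 weeks, with overlap. Its fall by 3.78 (SE 1.33, adjusted p = 0.0327) was no longer called without replicate 2, at -2.89. Ins1 fell by 3.43 and lost the call in the same way, at -2.26. In the control channel the insulin genes rose by 5.83 and 5.31. Krt18, a keratin of acinar and duct cells, fell by 4.10 (SE 1.30) and by 2.82 without replicate 2, where it was not called.

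Of 9 genes listed under peripheral tissue antigen control, 3 rose and 1 fell, with a median of 0.15. Of the 9, 6 were fully measured, and 44.9% of all fully measured genes were called. Aire and Deaf1 act in the display of tissue antigens such as insulin to T cells outside the pancreas. Other listed genes, such as Nfkb2 and Relb, are not specific to that role. Nfkb2, of the alternative NF-kB pathway, had ratios of -2.03 to -1.46 (median -1.74) at 4 weeks and 0.27, 0.13, 0.55 and -0.16 at 8 weeks, a rise of 1.92 (SE 0.19, adjusted p = 2.57e-09). Its partner Relb rose by 1.38. Aire, which drives tissue antigens in thymus and in rare lymph node cells, had -1.62 to -0.03 (median -0.40) and then 0.01, 0.68, 0.27 and -0.19, a rise of 0.89 (SE 0.24, adjusted p = 0.00508) with overlap. Deaf1, a related regulator described in this tissue, depended on the probe. Its brightest probe had 4-week ratios of 1.42, 4.40, -0.77, 3.38, -2.16 and 2.30 and 8-week ratios of -0.62, -5.98, -0.92 and 0.46, a fall by 3.19 (SE 1.19, adjusted p = 0.0449). The acinar list's mean ratios on the same arrays were 0.78, 2.27, -3.65, 2.05, -6.23 and 1.56, and then 0.27, -5.64, -0.25 and 0.66. In both series replicate 5 and then replicate 3 were lowest at 4 weeks, and replicate 2 at 8 weeks. A second Deaf1 probe had -1.37, -0.89, -0.93, -1.28, -0.65 and -1.31, and then -0.03, 0.05, 0.23 and 0.39. That probe separated the ages and rose by 1.23 (SE 0.18, adjusted p over all probes 3.78e-06). The part of pancreatic RNA in the brightest probe's values was not tested.

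**Figure D4:**
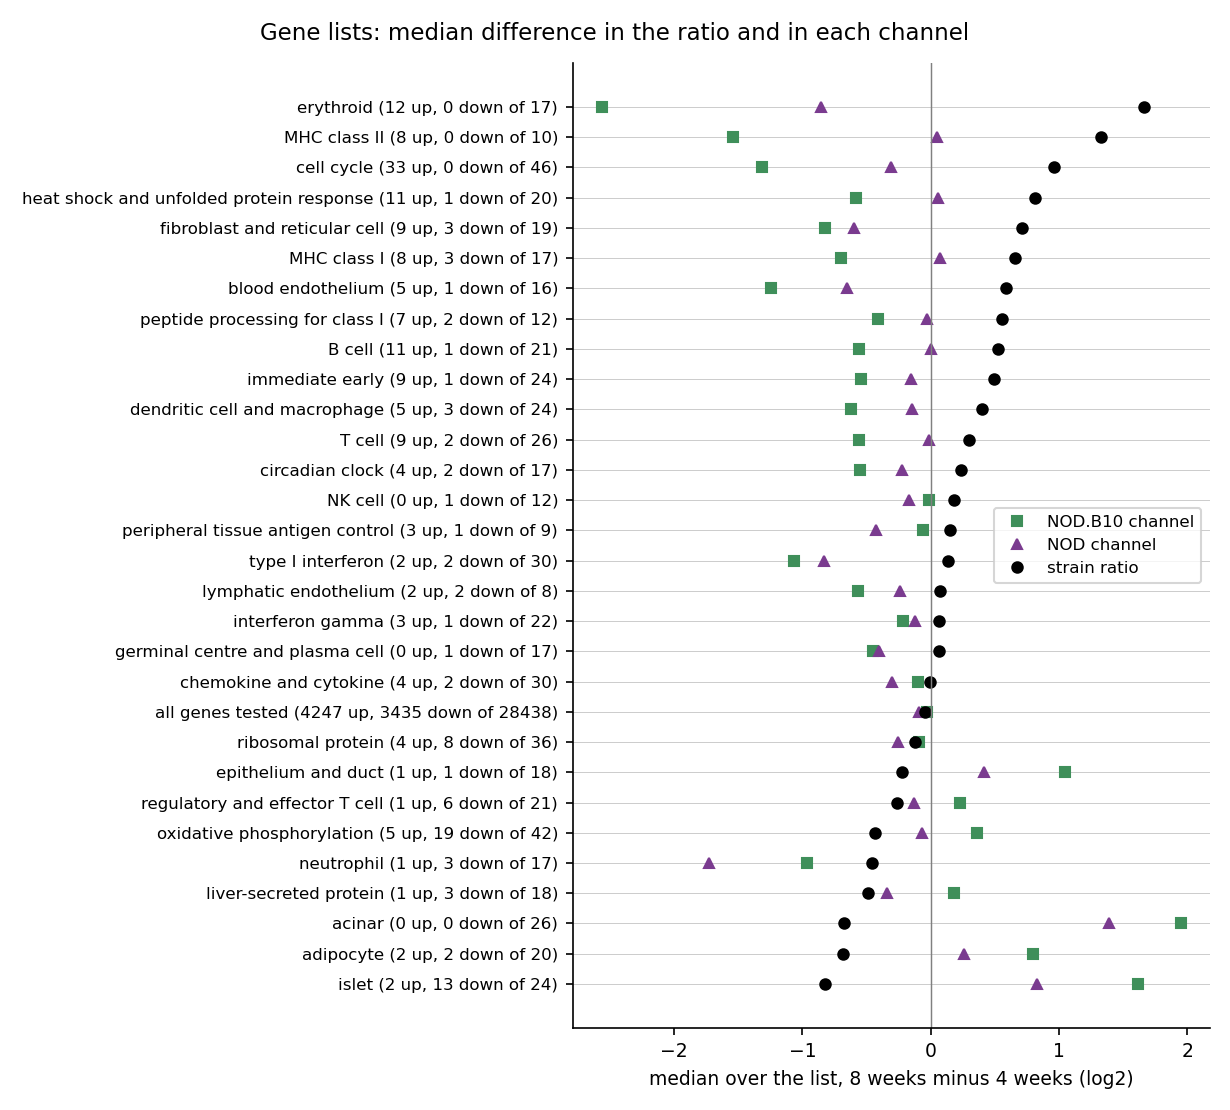
Median difference (log2, 8 weeks minus 4 weeks) over each of 29 gene lists and over all genes, in the strain ratio (circles), the NOD channel (triangles) and the NOD.B10 channel (squares), with counts called higher and lower in the ratio. The erythroid and class II lists lie at 1.66 and 1.33 and the islet list at -0.83, and the control squares lie farther from 0 than the NOD triangles for each of these.

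The erythroid list signal of the control channel lay close together within an age and shifted between ages. It was 12.15 ± 0.16 at 4 weeks (SD, n = 6) and 9.55 ± 0.15 at 8 weeks (n = 4). At the other ages it was 12.14 ± 0.12 at 10 days (n = 7), 11.27 ± 0.23 at 12 weeks (n = 7), 11.39 ± 0.17 at 16 weeks (n = 6) and 10.84 ± 0.08 at 20 weeks (n = 5). The 8-week control signal was thus the lowest of the 6 ages for this list, and for the cell cycle list too, at 10.44 ± 0.14 against 11.19 to 11.98 elsewhere. For the class II list the 4-week control signal was the highest, at 13.94 ± 0.20, and that at 10 days the lowest, at 11.67 ± 0.27. This list spread within ages too, from 12.20 to 13.00 at 8 weeks, with replicate 2 highest, and from 12.48 to 13.74 at 12 weeks. The strain ratio of Cd74 was 0.17 ± 0.16 at 10 days, -2.32 ± 0.16 at 4 weeks, 0.35 ± 0.43 at 8 weeks, 0.60 ± 0.38 at 12 weeks, 1.96 ± 0.18 at 16 weeks and 1.29 ± 0.26 at 20 weeks. That of Hsp90ab1 was 0.29 ± 0.21, -2.07 ± 0.41, 0.42 ± 0.21, 0.04 ± 0.21, 0.28 ± 0.05 and 0.35 ± 0.16 at the same ages. For both genes the 4-week mean was the one below 0, while Cd74 was also far above 0 at 16 and 20 weeks. Which control RNA an array held and the age of the NOD mice cannot be told apart in these ratios.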

How the data were processed

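Each array held labelled NOD RNA (Cy3) and NOD.B10 RNA (Cy5), isolated with RNeasy columns and amplified with a linear kit for low RNA input, per the labels' protocols. The deposited scanner files gave background-subtracted, dye-normalised intensity values, per the file headers, and flags for background, saturation and outliers. Low signals were set to a surrogate, for 12.6% to 36.6% of spots on these arrays. That share was 28.0% to 36.6% at 4 weeks, 28.9% on 8-week replicate 2 and 12.6% to 15.3% on the other 8-week arrays. The submitters' processing notes name Feature Extraction 8.5. The deposited log10 ratio equalled the negative of the scanner's own log10 ratio within 5e-10 and served as an alternative. An array held 41534 spots other than controls; precision is limited by the number of arrays.

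The log2 ratio of the processed intensities was averaged per probe without outlier flags. A probe was kept if either channel was flagged well above background on 4 or more arrays (40833 of 41174), and a gene was its brightest probe. Names were updated through a RefSeq gene table (GRCm38.p6), which matched 31510 probes; 9664 kept the name in the file. Group means of the 6 ages were fitted over all 35 arrays with limma 3.58.1 in R 4.3.3 (lmFit, eBayes, Benjamini-Hochberg at 0.05), a procedure first tested on simulated data. Channels were fitted alone after Aquantile normalisation, which keeps each ratio. A share of a difference in the NOD channel above 0.667 and up to 1.33 counted as carried by NOD, and one from -0.333 to under 0.333 as carried by the control. A channel not well above background, or saturated, on every array of an age has only a bound there.

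The comparison, the 29 gene lists and the genes named were chosen with earlier results of these data known. Genes with values are the 12 highest and 12 lowest fully measured differences, the 6 of each sign carried most clearly by each channel, up to 4 per list and a set of genes picked for the disease. Members named without a value were added after their values were seen. Alternatives varied background correction, filter, centring, probes, blocks for Feature Extraction version, scanner, scan day and replicate number, and left out each array in turn. Same-numbered arrays of the ages did not deviate together: their correlations were -0.003, -0.265, 0.012 and 0.090.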

Additional observations from a re-analysis of the deposited data

Results flagged for a closer look

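Among 226 groups of strain ratios, each a followed gene at 1 age, 7 held an array far from the others, by Dixon's test at its 95% critical value (0.829 for 4 arrays, 0.625 for 6). Chance flags about 1 in 20 groups. At 8 weeks replicate 4 was low for Tap1 at -0.469 (nearest array 0.11), for Ltb at 0.0197 (nearest 0.57) and for Icam1 at -0.635 (nearest 0.30). Replicate 2 was high for Gpkow at 0.193 (nearest -0.30), and replicate 3 was high for Tgfb1 at 0.609 (nearest 0.13). At 4 weeks replicate 5 was high for Fcmr at -1.05 (nearest -1.58), and replicate 1 was high for Tgfb1 at -0.438 (nearest -1.59).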

How the results depend on the processing

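In the strain ratio, 7682 genes were called. The count was 4292 with the version of Feature Extraction as a block, 3289 with a block for the scanner, 4981 in a fit to the 10 arrays alone and 3831 with a size limit of 1, and 6039 to 8271 when each array was left out. Higher genes were 54.7% to 57.3% of the calls in those 4 settings, beside 55.3% in the main setting. The NOD channel had 5765 calls, 33 under the version and 5 under the scanner block (chosen after seeing the data), and 2659 to 8869 with an array left out. The control channel had 13081, with 5360 and 4473 under those blocks. The median share in the NOD channel, 0.155, was -0.018 after normexp and loess, and, in settings chosen after seeing the data, 0.284 and 0.274 under the version and scanner blocks and -0.046 among fully measured genes.

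With the replicate block, the number shared by 4-week and 8-week arrays, 7055 genes were called in the ratio, 6505 in the NOD channel and 13586 in the control channel, and the share was 0.164; replicates 1 to 4 at 8 weeks correlated best with 4-week replicates 2, 5, 2 and 2, so none with its own number. Of 113 genes followed, 107 were called; 70 of these kept their call under every alternative run, 95 with each array left out, 91 with the version block and 77 with the scanner block, and none changed direction. Foxp3, not called, was 0.024 with the version block. With the scanner block 8-week replicate 2 alone carries the contrast, 1 array against 6; the version block also draws on 12-week replicate 7, the one array of its age read with 8.1.1.1. Dim probes limit the rest: 10834 of 28438 genes were measured in both channels on all 10 arrays.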
